A study of Homo sapiens with 6 samples.

Results

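The T helper lineage factors are the transcription factors that set and hold the identity of CD4 T-cell subsets, and 9 of them were examined among the 61541 Ensembl genes counted by RNA-seq in H9 cells. H9 is an established cutaneous T-cell lymphoma (CTCL) line, grown as a clone of an older line and labelled wild type, so that every library holds the same cells. The vehicle group was treated with DMSO (3 libraries) and the other group with AZD4573, a selective CDK9 inhibitor, for 4 h (3 libraries), at a concentration that the study's legends give as 50 nM. The 9 genes, EOMES, TBX21, GATA3, FOXP3, RORA, BCL6, MAF, PRDM1 and ZBTB7B, were matched by gene symbol, and each was found in 1 row of the count table. They were selected on their known role together with their levels and fold changes in these same libraries, so that their AZD4573 values are given as a description, without a test.

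CD4 T cells take on helper fates that are named after the cytokines they make, and each fate rests on a factor that activates its own genes and represses those of other fates. TBX21 (T-bet) and its relative EOMES drive interferon-γ production and the cytotoxic genes of Th1 and CD8 cells, whereas GATA3 (GATA-3) drives IL-4, IL-5 and IL-13 in Th2 cells. RORA supports the Th17 fate, FOXP3 specifies regulatory T cells, BCL6 and MAF drive follicular helper cells, and PRDM1 (Blimp-1) opposes BCL6. ZBTB7B (ThPOK) commits thymocytes to the CD4 lineage. CDK9 releases paused RNA polymerase II (RNAP2) into elongation, so that transcripts with a short half-life are known to be lost soon after it is inhibited.

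The factors that stood opposite each other in these libraries are illustrated by TBX21 and GATA3, the classical Th1 and Th2 pair, and the 250 bases before the start of each are printed for orientation (RefSeq, GRCh38.p14, plus strand for both genes). They were chosen as this pair, and neither window overlapped an exon of its own gene in GENCODE release 44, which also held for RORA and MAF. Capitals mark each CG dinucleotide. The TBX21 window lies at chr17:47732986-47733235 and the GATA3 window at chr10:8045083-8045332.
TBX21: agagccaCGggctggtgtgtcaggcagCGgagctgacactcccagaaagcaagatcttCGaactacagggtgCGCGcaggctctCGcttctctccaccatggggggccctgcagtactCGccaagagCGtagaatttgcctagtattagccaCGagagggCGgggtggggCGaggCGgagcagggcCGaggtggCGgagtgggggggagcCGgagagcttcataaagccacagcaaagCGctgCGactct
GATA3: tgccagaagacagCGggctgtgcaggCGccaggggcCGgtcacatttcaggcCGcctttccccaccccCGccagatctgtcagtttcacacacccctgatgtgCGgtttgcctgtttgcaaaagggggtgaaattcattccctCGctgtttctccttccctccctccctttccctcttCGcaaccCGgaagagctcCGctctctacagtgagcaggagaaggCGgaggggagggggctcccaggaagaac

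The TBX21 window held 17 CG dinucleotides at 63.2% GC and the GATA3 window 11 at 60.8% GC, where the median over 27305 promoter windows of this length was 11 at 58% GC. Windows of the same length were available for all 9 factors. Those of EOMES and BCL6 lay wholly within annotated exons of their genes, and those of FOXP3 (90 bases), ZBTB7B (19) and PRDM1 (16) in part. The windows of RORA and PRDM1 lay inside the annotated spans of these genes. On either strand, none of the 9 held the GATA motif AGATAA, which 9.37% of all windows hold, and none held the T-box core GGTGTGA, which 2.72% hold. The TATA box TATAAA, held by 11.1% of all windows, was found for MAF (30 bases before the start), FOXP3 (31 bases) and, on the opposite strand, EOMES (31 bases). These matches describe the letters of the windows only.

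Total counts ranged from 70367303 to 76571157 with DMSO and from 52101868 to 63795185 with AZD4573, and 17678 genes passed edgeR's filter on low counts. Of the 12 T-cell markers listed, CD3D, CD3E, CD3G, CD5, LCK and the T-cell receptor constant genes had mean levels of 56.4 to 263 CPM (counts scaled to library size by edgeR's TMM factors) with DMSO, whereas CD2 was at 0.105, CD7 at 0.602 and CD4 at only 3.83. The list summed to between 1233 and 1304 CPM with DMSO and between 1767 and 1813 with AZD4573, with 4 genes called higher. The 6 NK-cell markers, which matter here because NK cells also use EOMES and TBX21, summed to between 0.136 and 0.164 CPM with DMSO and between 0.0702 and 0.295 with AZD4573, and NCR1, FCGR3A and KIR2DL4 had no counts. The 5 myeloid markers summed to at most 0.667 CPM in a library. The 4 B-cell markers summed to between 55.4 and 61.3 CPM with DMSO and between 89.2 and 99.0 with AZD4573, nearly all from CD79A, while PAX5 was at 0.0127 and 0.012 CPM in the mean. As these are bulk libraries, fewer cells with a transcript and less of it per cell cannot be told apart. The mitochondrially encoded mRNAs, made by another polymerase, took 3.04% to 3.22% of the counts with DMSO and 4.67% to 4.98% with AZD4573, and the log2 fold changes of the factors are therefore also given with the libraries scaled to these mRNAs. For the list genes named by the rule given under processing, that scaling is named where it ended or made a call. For all other genes, among them the markers, the neighbouring genes and the other higher genes of a list, it is not given.

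With DMSO, GATA3 was by far the most abundant factor per length of merged exons, at 63.7 ± 2.34 CPM per kb (SD, n = 3). It was followed by EOMES at 9.98 ± 0.285 and ZBTB7B at 5.65 ± 0.126 CPM per kb. BCL6 came next at 2.02 ± 0.0758, before TBX21 at 0.755 ± 0.0245, PRDM1 at 0.664 ± 0.0409 and RORA at 0.525 ± 0.0343 CPM per kb. FOXP3 (0.0644 ± 0.0184 CPM per kb) and MAF (0.00368 ± 0.0048) closed the order. No neighbours in this order overlapped between libraries, although TBX21 and PRDM1 came close, with a lowest TBX21 library at 0.728 and a highest PRDM1 library at 0.702 CPM per kb. The order depends on the length used, and the merged exons of RORA pool 14 transcripts into 17023 bases. Without division by length, RORA (8.94 CPM) lay above PRDM1 (4.48) and TBX21 (1.98) with DMSO.

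With AZD4573 the order was GATA3 (105 ± 9.32 CPM per kb, SD, n = 3), ZBTB7B (12.2 ± 0.802), BCL6 (8.75 ± 0.76), RORA (0.423 ± 0.0433), EOMES (0.359 ± 0.0667), TBX21 (0.176 ± 0.0468), FOXP3 (0.138 ± 0.032), PRDM1 (0.128 ± 0.0152) and MAF (0.00255 ± 0.000237). Per kb, the libraries of RORA and EOMES overlapped, as did those of TBX21 and FOXP3 and those of FOXP3 and PRDM1. Without division by length, the AZD4573 means of RORA and EOMES were apart, at 7.2 and 1.31 CPM. EOMES thus moved from the second to the fifth place. Of all counts that fell on the 9 genes, EOMES took 12% ± 0.413 (SD, n = 3) with DMSO and 0.282% ± 0.0772 with AZD4573, and BCL6 took 3.94% ± 0.21 and 11% ± 0.257. GATA3 took 71% ± 1.14 and 75.8% ± 0.425.

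Of the 9 factors, 8 passed the filter on low counts. A gene was called where edgeR's quasi-likelihood test gave a Benjamini-Hochberg adjusted p under 0.05 and the change reached 1.5-fold. By this rule 3 of the 8 were called lower (EOMES, TBX21 and PRDM1) and 4 higher (GATA3, FOXP3, BCL6 and ZBTB7B), where 23.7% of all genes tested were called lower and 22.7% higher. RORA was not called. FOXP3, with 9 counts in DMSO replicate 3, passed the filter only with the help of its AZD4573 libraries. The call of FOXP3 was lost in 8 of the 12 alternatives run for it, the replicate block and DESeq2 among them, leaving 3 higher, or 1 with the mitochondrial scaling. Every AZD4573 library lay below every DMSO library for 4 of the 8 factors and above it for the other 4, where 38.7% and 39.0% of the genes tested had such separate groups. Since this contrast was known when the genes were picked, nothing is read from these counts.

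**Figure D1:**
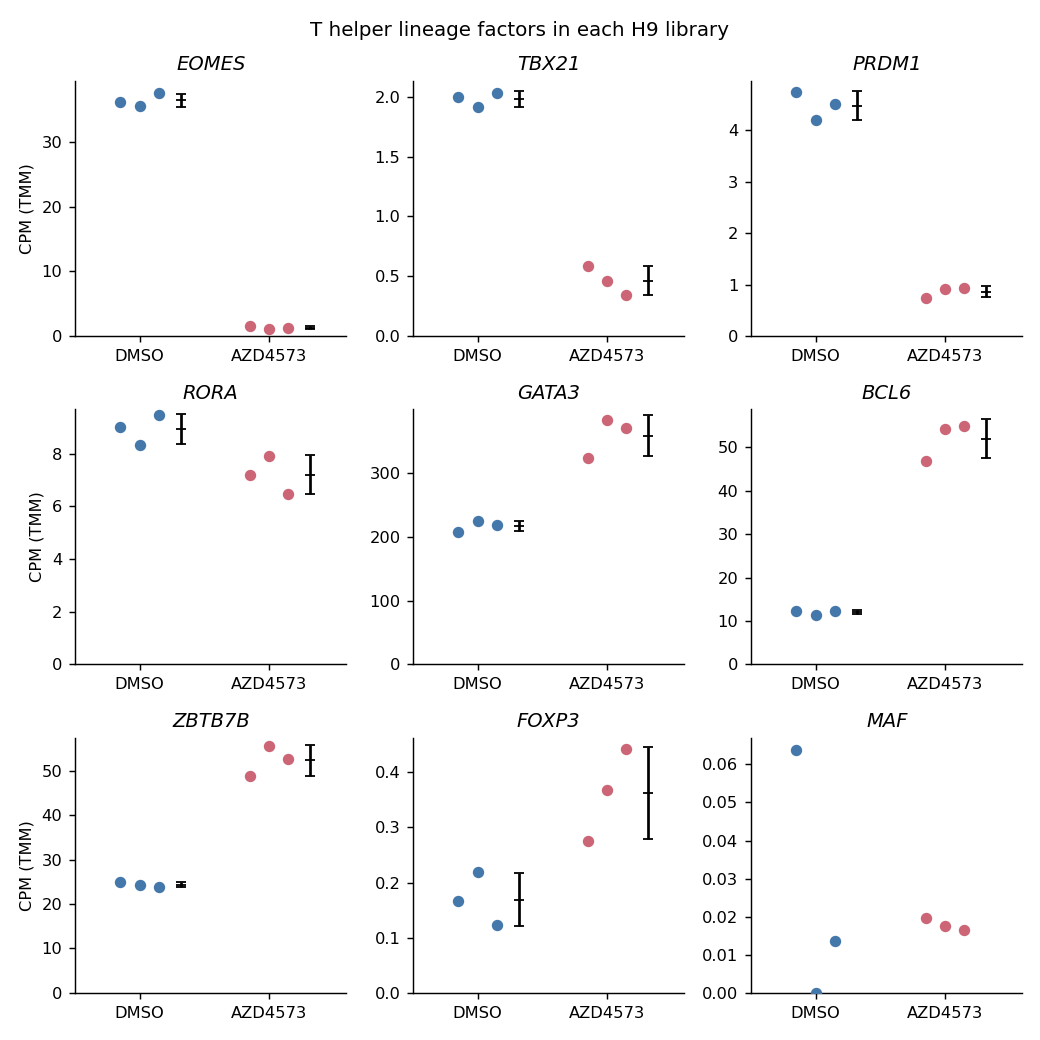
Level of each lineage factor in CPM (TMM-scaled, linear axis from 0) in the 3 DMSO and 3 AZD4573 libraries of H9 cells. Points are libraries and bars are mean ± SD (n = 3), left out for MAF, which reached 5 counts at most; EOMES, TBX21 and PRDM1 lay lower with AZD4573, and GATA3, BCL6 and ZBTB7B higher.

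EOMES (ENSG00000163508, chromosome 3, 27715949 to 27722711, minus strand, GENCODE release 44 on GRCh38) is a T-box factor of effector and cytotoxic T cells. Its DMSO libraries were at 36.2, 35.6 and 37.6 CPM, and its AZD4573 libraries at 1.57, 1.09 and 1.28 CPM. The groups were far apart, and the AZD4573 mean was 3.6% of the DMSO mean. The log2 fold change was -4.80 (standard error 0.0993), the 11th lowest among the 17678 genes tested, and it ranged from -4.95 to -4.69 with each library left out in turn. The counts behind it were 2609 to 2841 in a DMSO library and 62 to 80 in an AZD4573 library. The merged exons (3656 bases) share no base with another annotated gene.

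The genes whose pattern was most like that of EOMES, by the root mean square difference of log2 CPM from the DMSO mean over the 6 libraries, were RND3 (0.175), EFNA4 (0.374) and OTUD1 (0.42). RND3 went from 12.9 ± 0.591 to 0.523 ± 0.166 CPM (SD, n = 3). EFNA4, an ephrin ligand, went from 2.72 ± 0.0709 to 0.0693 ± 0.0295 CPM, and OTUD1, a deubiquitinase, from 4.51 ± 0.107 to 0.198 ± 0.0698 CPM. Their log2 fold changes were -4.64, -5.22 and -4.48. As the 3 genes were picked for their likeness to EOMES in these libraries, this nearness follows from the choice.

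TBX21 (ENSG00000073861, chromosome 17, 47733236 to 47746122, plus strand), the T-box factor that defines Th1 cells and whose upstream bases are printed above, was at 2, 1.91 and 2.04 CPM with DMSO and at 0.59, 0.456 and 0.344 CPM with AZD4573. It was thus present at a low level with DMSO and lower in each AZD4573 library. This gave a log2 fold change of -2.11 (standard error 0.222), and the counts were 140 to 157 and 21 to 30 in a library. The log2 fold change of EOMES was thus larger in size than that of its paralogue.

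PRDM1 (ENSG00000057657, chromosome 6, 105993463 to 106109939, plus strand) encodes Blimp-1, a transcriptional repressor that drives terminal differentiation and shuts off BCL6. It was at 4.74, 4.19 and 4.51 CPM with DMSO and at 0.747, 0.912 and 0.934 CPM with AZD4573, again without overlap. Its log2 fold change was -2.37 (standard error 0.15), with 38 to 57 counts in an AZD4573 library.

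RORA (ENSG00000069667, chromosome 15, 60488284 to 61229302, minus strand), a nuclear receptor, has by far the longest span of the 9 genes, at 741 kb. It was at 9.01, 8.33 and 9.49 CPM with DMSO and at 7.21, 7.93 and 6.46 CPM with AZD4573. The groups did not overlap, but the highest AZD4573 library came close to the lowest DMSO library. The log2 fold change of -0.31 (standard error 0.098) was below the 1.5-fold limit. RORA shares 907 of its 17023 exon bases with other annotated genes, among them RORA-AS1 on the opposite strand, which had 11 to 21 counts with DMSO and 24 to 40 with AZD4573, and counting without strand cannot divide the shared reads.

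GATA3 (ENSG00000107485, chromosome 10, 8045378 to 8075198, plus strand), the Th2 factor on which the study centres, was at 208, 224 and 218 CPM with DMSO and at 322, 382 and 370 CPM with AZD4573. Each AZD4573 library was higher than each DMSO library, and AZD4573 replicate 1 was the lowest of its group. In raw counts the groups were nearer, with 16031 to 16387 counts in a DMSO library and 16406 to 22592 in an AZD4573 library of smaller total. The log2 fold change was 0.73 (standard error 0.0583), at percentile 79.2 of all genes tested, but -0.01 with the mitochondrial scaling. By qRT-PCR, the study reported significantly fewer GATA-3 transcripts after AZD4573 in cell lines, H9 among them, and primary specimens. It also reported RNAP2 pausing at the GATA-3 locus in H9. Its qRT-PCR, whose legend gives no exposure time, and its immunoblots are other measures than these scaled counts. The difference in direction was not tested. The genes most like GATA3 in pattern were PRDM2, a paralogue of PRDM1 (root mean square difference 0.0296), LRCH4 (0.0322) and STMN3 (0.0372). Their log2 fold changes of 0.74, 0.74 and 0.73 are alike by this choice.

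BCL6 (ENSG00000113916, chromosome 3, 187721377 to 187745725, minus strand), the repressor that defines follicular helper cells, was at 12.2, 11.5 and 12.3 CPM with DMSO and at 46.7, 54.2 and 54.9 CPM with AZD4573. The groups were well apart, and the mean was 4.32 times higher with AZD4573. Its log2 fold change of 2.11 (standard error 0.0708) was at percentile 94 of all genes tested. BCL6 shares 487 of 5936 exon bases with other genes, and the only one of these with counts, ENSG00000285938, had 7 to 9 counts with DMSO and 26 to 41 with AZD4573.

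ZBTB7B (ENSG00000160685, chromosome 1, 155002630 to 155018523, plus strand) was at 24.9, 24.3 and 23.8 CPM with DMSO and at 48.8, 55.7 and 52.6 CPM with AZD4573. The groups did not overlap, and the log2 fold change was 1.11 (standard error 0.0588). AZD4573 replicate 1 was the lowest of its group for GATA3, BCL6 and ZBTB7B alike.

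FOXP3 (ENSG00000049768, chromosome X, 49250438 to 49264800, minus strand) was barely detected, with 13, 16 and 9 counts with DMSO and 14, 21 and 27 with AZD4573. These counts are 0.166, 0.218 and 0.122 CPM against 0.275, 0.368 and 0.442 CPM, which did not overlap. The summed counts of 38 (exact 95% Poisson interval 26.9 to 52.2) and 62 (47.5 to 79.5) have intervals that overlap, and they cover counting error only. Its log2 fold change of 1.10 had a standard error of 0.403, the largest of the 8 factors tested, and it was no longer called without DMSO replicate 1, DMSO replicate 3, AZD4573 replicate 2 or AZD4573 replicate 3. FOXP3 shares 408 of 2619 exon bases with other genes, including 83 with CCDC22 on the opposite strand, which had 1271 to 1784 counts in a library. The part of these shared bases in the FOXP3 counts was not tested.

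MAF (ENSG00000178573, chromosome 16, 79585843 to 79600737, minus strand) had 5, 0 and 1 counts with DMSO and 1 count in each AZD4573 library. Summed over the libraries of a group, this is 6 counts (exact 95% Poisson interval 2.2 to 13.1) and 3 counts (0.619 to 8.77), both with wide intervals. A change of MAF was not detectable at this depth.

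**Figure D2:**
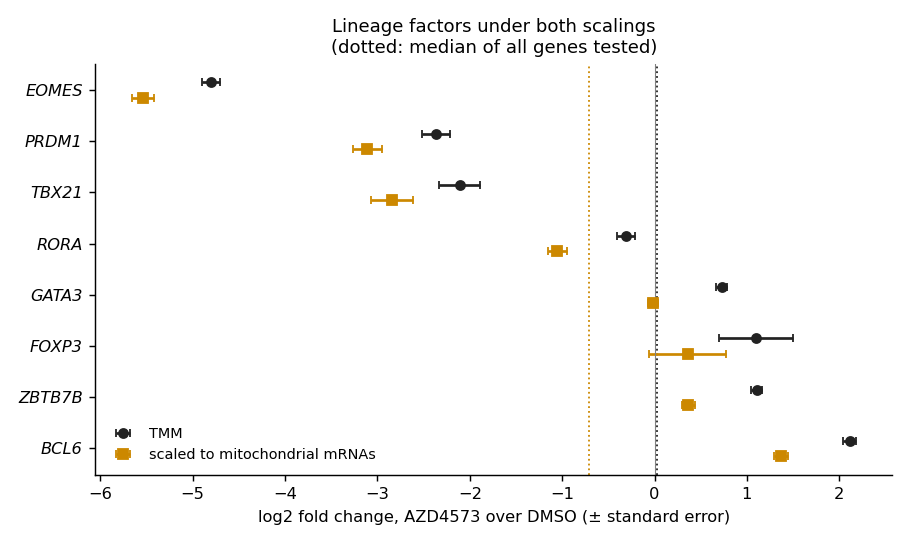
Log2 fold change (AZD4573 over DMSO) ± standard error of the 8 tested lineage factors, from edgeR with TMM scaling (circles) and with the libraries scaled to the 13 mitochondrially encoded mRNAs (squares); dotted lines mark the median of all genes tested. The mitochondrial scaling moves all of them down, so that EOMES, PRDM1, TBX21 and RORA, negative with TMM, could not change sign. GATA3 moves from 0.73 to -0.01, and BCL6, FOXP3 and ZBTB7B stay positive.

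The mitochondrial scaling moved all factors tested down, so that those already negative could not change sign. Of the positive factors, GATA3 did not stay positive. Scaled to the 13 mitochondrially encoded mRNAs, the median log2 fold change of all genes tested went from 0.03 to -0.71. On that scale EOMES was at -5.54, PRDM1 at -3.11, TBX21 at -2.84 and RORA at -1.05. BCL6 stayed positive at 1.37, ZBTB7B at 0.36 and FOXP3 at 0.36, and GATA3 was at -0.01.

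Ratios of counts between factors within a library need no scaling between libraries. There were 5.74 to 6.28 GATA3 counts for each EOMES count in a DMSO library and 205 to 351 in an AZD4573 library, so that the mean ratio was 47.5 times higher. The ratio of GATA3 to TBX21 counts was 104 to 117 with DMSO and 547 to 1076 with AZD4573. Between the paralogues, the ratio of EOMES to TBX21 counts was 18.1 to 18.6 with DMSO and 2.38 to 3.71 with AZD4573, which is 6.3 times lower in the mean.

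For the antagonists BCL6 and PRDM1, the ratio of counts was 2.58 to 2.74 with DMSO and 58.8 to 62.6 with AZD4573, a mean 22.4 times higher. Among the factors that were higher by TMM, GATA3 lost ground to BCL6, with a ratio of 17 to 19.5 with DMSO and 6.74 to 7.06 with AZD4573, and less so to ZBTB7B, with 8.36 to 9.21 and 6.61 to 7.04. In none of these 6 ratios did the groups overlap. These factors were picked with this contrast known, and each already had separate groups, as did 38.7% (below) and 39.0% (above) of all genes tested. Nothing is therefore read from this.

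**Figure D3:**
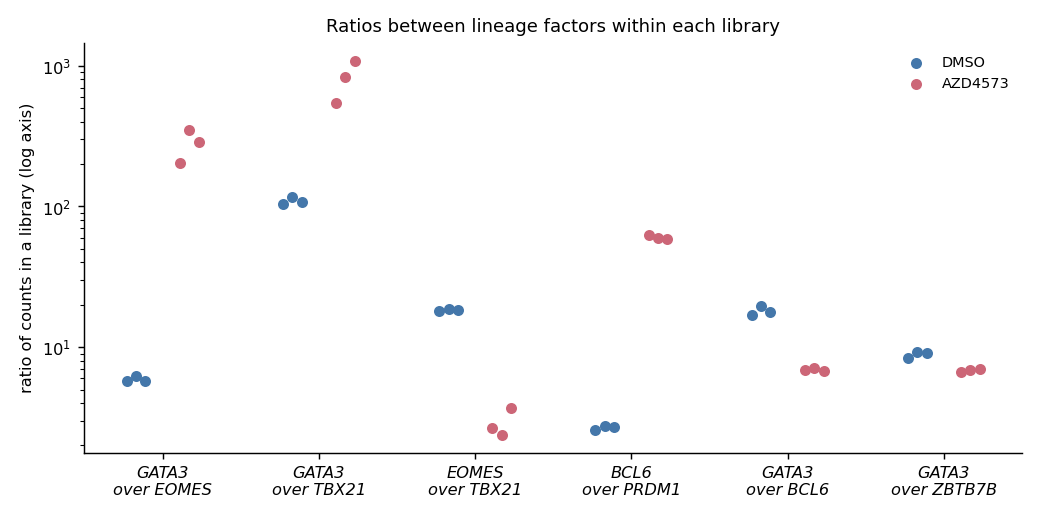
Ratio of the counts of pairs of lineage factors within each of the 6 libraries (log axis), which no scaling between libraries can alter. Points are libraries; the ratio of GATA3 to EOMES goes from 5.94 in the mean with DMSO to between 205 and 351 with AZD4573, and that of BCL6 to PRDM1 from 2.68 to 60.3 in the mean.

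Genes linked to the helper fates or to these factors were followed through lists written from general knowledge of T helper biology. A gene may stand in more than 1 list. The lists also hold receptors, signalling genes and regulators such as PATZ1, and are not sets of targets of these factors. Which listed genes these factors control was not tested. Listed genes are called as above, over all 17678 genes tested and against the same 23.7% lower and 22.7% higher, with adjusted p values from edgeR's quasi-likelihood test. A gene nearly absent with DMSO could pass the filter on low counts through AZD4573 alone, and could then only be called higher. Such genes are included in the counts of higher genes, and not all of them are pointed out below. In the Th1 list (24 genes, 20 tested), 7 genes were lower and 3 higher, and the median log2 fold change was -0.45 against 0.03 for all genes. CXCR3, a chemokine receptor of Th1 cells and a T-bet target, fell from 21.2 ± 0.341 to 7.49 ± 0.246 CPM (SD, n = 3, log2 fold change -1.50, adjusted p = 4.07e-10). IFNGR1, a chain of the interferon-γ receptor, fell from 20.8 ± 1.11 to 5.24 ± 1.25 CPM, and IFNG itself, low throughout, had 60 to 109 counts in a DMSO library and 25 to 30 in an AZD4573 library (log2 fold change -1.15, adjusted p = 0.00164). TNF rose from 15 ± 1.58 to 27.7 ± 2.61 CPM, a call that ended with the mitochondrial scaling (log2 fold change 0.15, edgeR, adjusted p = 0.142). The other 2 higher genes, IL12RB2 and CRTAM, were below 1 CPM with DMSO.

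In the Th2 list (25 genes, 22 tested), 12 genes were lower and 3 higher, with a median log2 fold change of -0.68. NFIL3, a basic leucine zipper repressor, fell from 6.38 ± 0.401 to 0.42 ± 0.106 CPM (SD, n = 3, log2 fold change -3.92, adjusted p = 3.46e-10). CCR8, a chemokine receptor of Th2 and regulatory cells, fell from 32.4 ± 0.872 to 9.08 ± 0.857 CPM (log2 fold change -1.84). The cytokines that GATA3 drives were low with DMSO, with IL5 and IL13 near the limit of detection, and went different ways. IL4 had 41, 27 and 38 counts with DMSO and 10, 6 and 7 with AZD4573 (log2 fold change -1.76, adjusted p = 0.00142). IL13 had 4, 0 and 3 counts with DMSO and 60, 62 and 57 with AZD4573, and IL5 had 1, 0 and 0 against 11, 22 and 21, and both were called higher. Both passed the filter on low counts through their AZD4573 libraries alone, so that no other call was possible. PTGDR2, a prostaglandin receptor and the remaining higher gene, was below 1 CPM with DMSO as well, as were 4 of the 12 lower genes (IL4, CCR3, IRF4 and CRLF2), of which CCR3 had libraries that overlapped between the groups.

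In the Th17 list (22 genes, 13 tested), 4 genes were lower and 2 higher, with a median of 0.07. BATF, an AP-1 factor needed for the Th17 fate, fell from 35.9 ± 2.08 to 12.4 ± 1.13 CPM (SD, n = 3), and AHR, a ligand-activated factor, from 64.9 ± 1.4 to 23.5 ± 0.926 CPM. NFKBIZ rose from 14.1 ± 1.58 to 26.8 ± 0.876 CPM, a call that also ended with the mitochondrial scaling (log2 fold change 0.19, edgeR, adjusted p = 0.0575). The other higher gene, IL17F, had 0, 0 and 2 counts with DMSO and 70, 59 and 73 with AZD4573. It too passed the filter through its AZD4573 libraries alone. IL17A, the cytokine that names this fate, had no counts in any library.

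In the list of regulatory T-cell genes (25 genes, 21 tested), 7 genes were lower and 5 higher, with a median of -0.01. The higher genes numbered 2 without AZD4573 replicate 2, 3 with DESeq2 and 1 where 10 counts were required in all libraries. CCR8, also in this list, and FOXO1 had the lowest log2 fold changes among its well-expressed genes, and FOXO1 fell from 24.1 ± 0.787 to 6.75 ± 0.856 CPM (SD, n = 3, log2 fold change -1.84), and ENTPD1 (CD39), an ectonucleotidase, rose from 81.9 ± 1.32 to 124 ± 6.24 CPM, although it was at -0.14 on the log2 scale with the mitochondrial scaling. At a log2 fold change of 0.60, ENTPD1 lay close to the 1.5-fold limit and fell short of it in 7 of 13 alternatives, among them DESeq2 (0.58) and leaving out DMSO replicate 1, AZD4573 replicate 2 or AZD4573 replicate 3. The other 4 higher genes, TNFRSF18, TNFRSF4, TIGIT and GPR83, were below 1 CPM with DMSO. GPR83, with 2, 7 and 5 counts with DMSO, passed the filter through its AZD4573 libraries alone. IL2RA (CD25) was at 10 ± 0.278 and 10 ± 0.772 CPM, with no call (edgeR, adjusted p = 0.959), but was called lower with the mitochondrial scaling (log2 fold change -0.74, adjusted p = 3.18e-06). CTLA4 reached 4 counts at most.

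In the follicular helper list (26 genes, 22 tested), 6 genes were lower and 4 higher, with a median of -0.23. KLF2, which restrains the follicular fate, fell from 9.8 ± 0.176 to 2.3 ± 0.243 CPM (SD, n = 3, log2 fold change -2.09), and IL6ST, the signal chain of the IL-6 receptor, from 12.3 ± 0.73 to 3.43 ± 0.085 CPM. TOX2 rose from 4.68 ± 0.173 to 7.4 ± 0.292 CPM, although it was at -0.08 on the log2 scale with the mitochondrial scaling and below the 1.5-fold limit with library size only (0.56). The other higher genes were CXCR5, CD40LG and BTLA, each below 1 CPM with DMSO. BTLA, with 6, 2 and 4 counts with DMSO, passed the filter through its AZD4573 libraries alone. CXCR5, the receptor that leads cells into follicles, had 58 to 79 counts with DMSO and 85 to 105 with AZD4573 (log2 fold change 0.84, adjusted p = 0.00135), a call that ended with the mitochondrial scaling (0.10, adjusted p = 0.646), and IL21 had at most 2.

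In the list for the choice between the CD4 and CD8 lineages (22 genes, 20 tested), 2 genes were lower and 2 higher, with a median of -0.15. MYB fell from 399 ± 10.5 to 179 ± 4.51 CPM (SD, n = 3) and PATZ1 (MAZR), a repressor of ZBTB7B in CD8 cells, from 77.5 ± 2.26 to 40.5 ± 1.92 CPM. CD4 rose from 3.83 ± 0.215 to 6.98 ± 0.421 CPM (log2 fold change 0.87, adjusted p = 3.97e-06), a call that ended with the mitochondrial scaling (0.13, adjusted p = 0.298). BCL11B rose from 95 ± 6.48 to 143 ± 6.48 CPM, although it was at -0.15 on the log2 scale with the mitochondrial scaling. At a log2 fold change of 0.59, BCL11B also lay close to the 1.5-fold limit and fell short of it in 6 of 13 alternatives, among them DESeq2 (0.57) and leaving out DMSO replicate 1 (0.53) or AZD4573 replicate 2 (0.55). CD8A was at 0.545 ± 0.049 and 0.621 ± 0.0681 CPM and was not called (edgeR, adjusted p = 0.54).

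**Figure D4:**
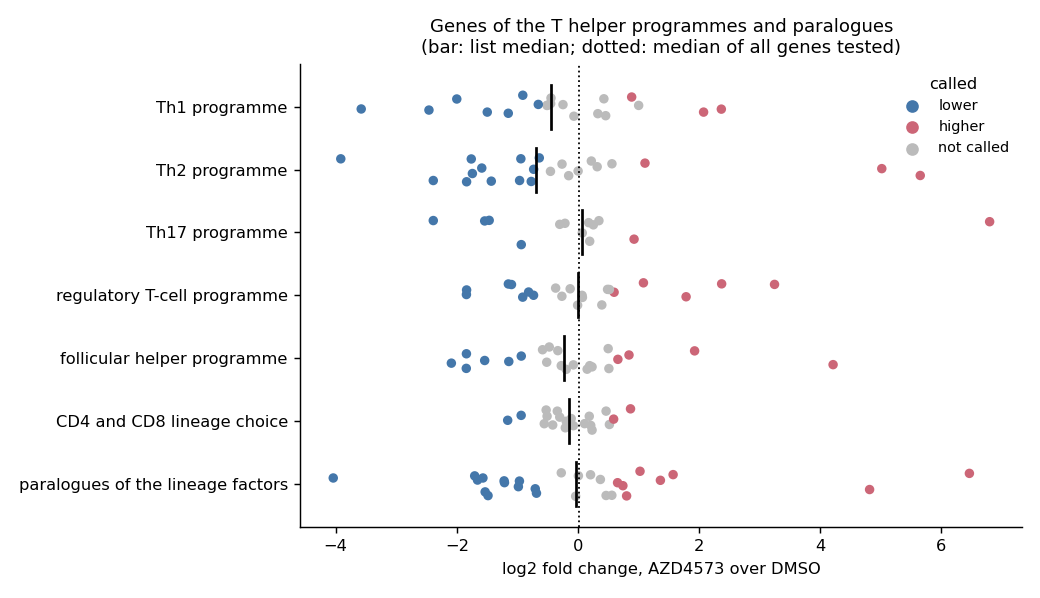
Log2 fold change (AZD4573 over DMSO, edgeR, TMM) of each tested gene in 7 lists, with the list median (bar) and the median of all genes tested (dotted line, 0.03). Colours mark genes called lower or higher at an adjusted p under 0.05 and at least 1.5-fold; the Th2 and Th1 lists have the lowest medians (-0.68 and -0.45), and the points above 4 are genes with few or no counts in the DMSO libraries.

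Among 46 paralogues of the 9 factors, 27 were tested, of which 12 were lower and 8 higher, with a median of -0.04. The T-box paralogue TBX20 fell from 9.23 ± 0.406 to 2.83 ± 0.0443 CPM (SD, n = 3), and TBR1, the closest relative of EOMES, had 1, 1 and 0 counts with DMSO and 36, 64 and 62 with AZD4573. TBR1 passed the filter through its AZD4573 libraries alone. PRDM11 fell from 24.1 ± 0.844 to 7.63 ± 0.648 CPM, whereas PRDM15 rose from 17.2 ± 1.24 to 35 ± 0.877 CPM, a change under the 1.5-fold limit with the mitochondrial scaling (log2 fold change 0.29). MAFG, a small MAF protein, rose from 102 ± 2.84 to 302 ± 24.1 CPM (log2 fold change 1.57, adjusted p = 6.48e-11). Paralogues of 1 family were thus found among both the lower and the higher genes.

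The genes that share the loci were taken as all those that overlap a lineage factor or lie within 50 kb of it. Of 57 such genes, 55 had a row in the count table and 22 were tested, with 3 lower (13.6%) and 8 higher (36.4%), where 23.7% and 22.7% of all genes tested were called. GATA3-AS1, on the opposite strand of GATA3 with no exon base in common, rose from 0.726 ± 0.112 to 4.38 ± 0.366 CPM (SD, n = 3, log2 fold change 2.59, adjusted p = 8.13e-09). It lies inside the span of GATA3, and counting without strand cannot divide its reads from unspliced GATA3 reads. Their part in its counts was not tested. TAF3, a subunit of TFIID that lies 28.8 kb from GATA3, fell from 57.5 ± 0.527 to 28.1 ± 2.18 CPM. ATG5, an autophagy gene that overlaps the span of PRDM1, fell from 31 ± 2.61 to 16.2 ± 0.48 CPM. EFNA4, named above for its likeness to EOMES, lies 45.2 kb from ZBTB7B, and its log2 fold change of -5.22 stood beside 1.11 for ZBTB7B. The other higher genes were PPP1R3F near FOXP3, RORA-AS1, DCST2 and DCST1-AS1 near ZBTB7B and 3 genes without a symbol, 2 of them at the BCL6 locus. Of the 8 higher genes, all but PPP1R3F (3.72 CPM) were below 1 CPM with DMSO. The share of higher genes thus rests mostly on weakly detected entries, and nothing is read from it.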

How the data were processed

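Bulk RNA-seq of H9 cells covered 3 DMSO and 3 AZD4573 libraries. The authors trimmed reads with Cutadapt 2.3 (FastQC 0.11.8), aligned them to GRCh38 with STAR 2.7.8a and deposited expected counts per gene from RSEM 1.3.3 at its default parameters, as whole numbers without normalization or use of strand. Poly(A) selection is given in the labels, but rRNA depletion in the supplemental methods. Of 61546 entries, 5 reporter sequences without counts were left out.

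Counts were analysed in R 4.3.3 with edgeR 4.0.16 (minimum count 10, TMM, quasi-likelihood test, Benjamini-Hochberg adjustment, no replicate block), and a gene was called at an adjusted p under 0.05 and at least 1.5-fold. CPM use TMM-scaled library sizes. The lineage factors and gene lists were chosen with earlier results of these data known. Named were the 9 factors, 12 signature genes and, in each list, up to 2 called genes in each direction with the largest fold change and at least 5 CPM in the higher group, the 3 genes most like EOMES and GATA3 (log2 CPM, prior count 2) and called neighbours. Other higher genes of a list were named after their values were seen. One signature gene is not reported here.

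Gene positions came from GENCODE release 44. The labels do not say that libraries come from separate cultures, so that p values measure only the spread between these libraries. No library was a copy of another of its group (chi-square over degrees of freedom 5.29 to 19.4). The procedure was tested on simulated data. Alternatives were RLE factors, library size only, scaling to 13 mitochondrially encoded mRNAs, no filter, a filter of 10 counts in all libraries, leaving out each library, a replicate block and DESeq2 1.42.0.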

Additional observations from a re-analysis of the deposited data

How the results depend on the processing

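The number of lineage factors called lower was 3 under each alternative run but the mitochondrial scaling (4, with RORA), and the number called higher was 3 or 4 under each but that scaling (1, BCL6). FOXP3, IL4, IL5 and IL13 were not tested where 10 counts were required in all libraries. With the mitochondrial scaling, 9433 genes were lower and 1769 higher, and the median log2 fold change of all genes was -0.71 (-0.079 with library size only). On that scale the log2 fold changes of GATA3 (-0.014), BCL11B (-0.15), ENTPD1 (-0.14), TOX2 (-0.077) and CD8A (-0.55) were negative, TNF, CD4, CXCR5, NFKBIZ and PRDM15 were no longer called, and IL2RA was called lower (-0.74). Lower genes then numbered 13 in the Th1, regulatory, follicular helper and CD4 and CD8 lists and 7 in the Th17 list, and higher genes 0 in the CD4 and CD8 list, 1 in the Th17 list, 2 in the regulatory and follicular helper lists and 3 among paralogues.

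Other changes were few, and the cause was not tested. Genes higher in the CD4 and CD8 list numbered 1 with DESeq2, library size only or no filter, and 1 to 2 with a library left out (1 without AZD4573 replicate 2 or DMSO replicate 1), and 5 were lower with library size only. Genes higher in the regulatory list numbered 3 with DESeq2 or library size only, 1 with 10 counts required in all libraries and 2 to 6 with a library left out (2 without AZD4573 replicate 2). Genes higher in the Th17 list numbered 1 with 10 counts required. The Th17 median relative to all genes was -0.41 with DESeq2 and -0.41 with no filter, and -0.0057 (without DMSO replicate 1) to 0.12 with a library left out. IL2RA was at 0.032 with 10 counts required and -0.060 to 0.048 with a library left out. Of 28 named list genes with a test, 19 kept their call under each alternative run for them and 25 under each but the mitochondrial scaling, the exceptions being BCL11B, ENTPD1 and TOX2.

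The replicate numbers did not pair the libraries (correlation of deviations -0.0208, 0.0417 and 0.0316), and with the replicate block 4162 genes were lower and 3926 higher, with 3 lineage factors lower and 3 higher. Low counts limit FOXP3, MAF, IL4, IL5, IL13, IL17F and IL21.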
